A study of Mus musculus with 18 samples.

Results

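The Dlk1-Dio3 locus is an imprinted stretch of mouse chromosome 12, and 8 of its genes were followed here through 5 sorted cell populations of mouse muscle and of a Hedgehog-driven muscle tumor. The genes were the protein-coding Dlk1, Rtl1 and Dio3, the long noncoding RNAs Meg3, Rian and Mirg, and the small nucleolar RNA (snoRNA) genes AF357355 and AF357425. A gene was taken as measured where the array annotation gave it a probe set with no other gene symbol, and of several such probe sets the one with the highest mean over 18 arrays stood for the gene. By this rule 6 of the 8 genes were measured, among 22180 genes in all, and Rtl1 and Mirg were absent as genes of their own, since their 6 and 3 probe sets also carry the names of other genes. The genes were chosen by measured values: the locus, and both snoRNA genes in it, had been picked because they were among the largest differences between Tom+ and Tom- muscle cells, so all muscle values below are a description with no test.

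All mice carried aP2-Cre and a tdTomato reporter, so that cells in which aP2-Cre had acted, and their descendants, are marked (Tom+). The aP2 promoter is that of Fabp4, which encodes a fatty acid binding protein of fat cells and capillary endothelium. Muscle cells came from normal sternocleidomastoid muscle of B6;SJL mice at postnatal day 21 (genotype aP2-Cre/+;tdTomato/+, written aP2-Cre/+;tdTomato on 1 array), as 3 arrays each of Tom+ and Tom- cells. Tumor cells came from mice of strain BJ;SJL;B6.129 and genotype aP2-Cre/+;tdTomato/+/;SmoM2/+. In these mice aP2-Cre also switches on SmoM2, an always active form of Smoothened, a protein of the Hedgehog pathway. Their tumors were taken at postnatal day 48, or day 38 for repeat 4, and gave 4 arrays each of Tom-/Pecam1-, Tom+/Pecam1- and Tom+/Pecam1+ cells. Pecam1 is a surface protein of endothelial cells. The muscle cells were not divided by Pecam1. The labels call the repeats biological and do not say whether each came from a separate animal, nor whether same-numbered populations came from the same tissue.

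At this locus the genes are expressed from 1 parental chromosome: Dlk1, Rtl1 and Dio3 from the paternal copy, and Meg3, Rian and Mirg, with the snoRNAs and most of the microRNAs (miRNAs) that lie in and between them, from the maternal copy. Dlk1 encodes a transmembrane protein of the Delta family, Rtl1 a protein derived from a retrotransposon, and Dio3 the deiodinase that inactivates thyroid hormone. Rian is the host transcript of a tandem array of box C/D snoRNAs, Mirg of a miRNA cluster, and box C/D snoRNAs as a class guide methylation of other RNAs. In muscle the locus is known from the callipyge sheep, whose enlarged muscles go with raised Dlk1 and Rtl1.

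The miRNA genes of the locus that fell or rose in the tumor comparisons below are shown first by their mature products, since a miRNA recognises its targets mainly through its seed. The seed, bases 2 to 8, is in capitals. The array values are of probe sets named for miRNA genes. They cannot tell a mature product from its precursor or host transcript. RefSeq (GRCm38.p6) places 61 miRNA genes between Begain and Dio3, and they yield 114 mature sequences with 104 different seeds, of which 10 are held by more than 1 mature sequence. The mature sequences printed are those of the miRNA genes with the largest decreases in marked Pecam1+ tumor cells (Mir544, Mir453, Mir3070b, Mir493, Mir377), of Mir3070a and Mir496a, which share a seed with one of these, and of Mir494, which was higher in marked Pecam1+ than in unmarked cells.
miR-544-5p: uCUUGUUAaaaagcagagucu
miR-544-3p: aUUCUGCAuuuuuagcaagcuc
miR-453: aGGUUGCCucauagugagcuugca
miR-496a-5p: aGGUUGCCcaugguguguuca
miR-3070-5p (Mir3070a and Mir3070b): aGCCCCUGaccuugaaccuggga
miR-3070-3p (Mir3070a): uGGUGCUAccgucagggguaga
miR-3070-2-3p (Mir3070b): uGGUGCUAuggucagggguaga
miR-493-5p: uUGUACAUgguaggcuuuc
miR-493-3p: uGAAGGUCcuacugugugccagg
miR-377-5p: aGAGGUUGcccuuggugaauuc
miR-377-3p: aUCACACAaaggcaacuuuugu
miR-494-5p: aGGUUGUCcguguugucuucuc
miR-494-3p: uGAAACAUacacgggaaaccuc
miR-453 and miR-496a-5p share the seed GGUUGCC, and the products of Mir3070a and Mir3070b share both of their seeds, GCCCCUG and GGUGCUA. The other sequences printed share no seed with each other.

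The promoter windows of Dlk1 and Meg3 are shown because these genes start the paternal and the maternal side of the locus and both fell in marked Pecam1+ tumor cells. Each window runs from 250 bases before to 50 bases after a gene start in RefSeq (GRCm38.p6, plus strand), at chr12:109452573-109452872 for Dlk1 and chr12:109540746-109541045 for the first Meg3 start. Capitals mark the cAMP response element TGACGTCA, the CCAAT box, the TATA box TATAAA and the GLI motif GACCACCCA, searched on both strands.
Dlk1: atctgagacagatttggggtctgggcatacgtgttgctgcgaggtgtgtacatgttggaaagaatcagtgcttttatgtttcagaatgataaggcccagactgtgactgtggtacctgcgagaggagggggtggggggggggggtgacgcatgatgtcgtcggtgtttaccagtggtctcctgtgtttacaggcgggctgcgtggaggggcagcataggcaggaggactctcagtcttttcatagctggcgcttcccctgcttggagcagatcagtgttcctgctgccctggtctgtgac
Meg3: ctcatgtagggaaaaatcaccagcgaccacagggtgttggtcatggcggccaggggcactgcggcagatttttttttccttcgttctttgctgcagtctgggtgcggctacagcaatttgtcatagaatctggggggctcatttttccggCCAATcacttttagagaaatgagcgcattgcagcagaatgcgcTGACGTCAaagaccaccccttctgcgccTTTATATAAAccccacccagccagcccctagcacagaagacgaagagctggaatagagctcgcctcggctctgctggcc
The Meg3 window holds the CCAAT box at base 151, the cAMP response element at base 194 and the TATA box at bases 222 and 226, on opposite strands and overlapping, whereas none of the 4 motifs is in the Dlk1 window. Of 32851 promoter windows of this length, 1.79% hold the cAMP response element, 37.4% the CCAAT box, 13.6% the TATA box and 0.253% the GLI motif. These matches describe the letters and say nothing of binding.

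The values are log2 probe set intensities, made by the authors with RMA, and levels are compared between cells for 1 gene but not between genes, because probe sets differ in brightness. Array medians lay at 5.041 to 5.105 in muscle and 5.41 to 5.438 in tumor, so muscle and tumor values do not share a scale. In the tumor arrays the mean of the 3 populations was the same in every repeat at every probe set, within 7.67e-05, so the deposited values have had differences between repeats taken out, and a high value in 1 population of a repeat goes with low values in the others. Differences within a repeat are not touched by this, but 12 arrays then hold less independent spread than their number, and tests with the repeat as a block are given where they end a call. Of 17 salivary gland genes with a probe set, a list written after the data were seen, 5 stood more than 1 log2 unit above repeat 3 when muscle repeats 1 and 2 were averaged, both in Tom+ and in Tom- cells, led by Bpifa2 (6.75 and 7.71). Muscle results are therefore also given from repeat 3 alone.

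Pecam1 was high in the tumor cells sorted for it, and the populations differed in the markers of other cell types. Fabp4, the gene of the aP2 promoter, read 12.45 ± 0.06 in Tom+ and 10.86 ± 0.23 in Tom- muscle cells. In the tumor it read 12.19 ± 0.58 in Tom+/Pecam1+, 9.27 ± 0.13 in Tom+/Pecam1- and 9.7 ± 0.62 in Tom-/Pecam1- cells. It was thus not higher in marked than in unmarked Pecam1- cells. Pecam1 stood at 11.88 ± 0.21 (SD, n = 4) in marked Pecam1+ tumor cells against 7.1 ± 0.23 (n = 4) in marked Pecam1- cells, and at 11.18 ± 0.07 (n = 3) in Tom+ muscle cells against 8.1 ± 0.28 (n = 3) in Tom- muscle cells. Summed over 10 blood endothelial markers, the log2 level was 14.19 to 14.27 in Tom+ muscle and 14.1 to 14.86 in Tom+/Pecam1+ tumor cells, and 9.43 to 10.99 over all arrays of the other 3 populations. Summed over 9 fibroblast markers it was 8.83 to 9.76 in Tom+ muscle and 10.05 to 10.81 in Tom+/Pecam1+ tumor cells, against 13.78 to 14.43 over the arrays of the other 3. The 10 markers of differentiating muscle summed to 8.73 to 9.66 in Tom+ muscle, 12.06 to 12.57 in Tom- muscle, 9.18 to 9.92 in Tom+/Pecam1+, 12.87 to 13.44 in Tom+/Pecam1- and 11.08 to 12.1 in Tom-/Pecam1- tumor cells. Leukocyte markers (10 genes) were highest in Tom-/Pecam1- tumor cells, at 13.15 to 13.7.

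In normal muscle both long noncoding RNAs, both snoRNAs and Dlk1 were lower in Tom+ than in Tom- cells, and the 3 arrays of one population did not overlap those of the other. Dlk1, at the paternal side, read 6.35, 6.91 and 6.41 in the Tom- repeats and 5.08, 4.96 and 4.87 in the Tom+ repeats. Its mean difference was -1.58, or 3.0-fold, the smallest of the 5. Meg3 read 10.17, 9.62 and 9.8 in Tom- cells against 6.72, 6.09 and 6.4 in Tom+ cells, a difference of -3.46. The lowest Tom- array, at 9.62, was thus far above the highest Tom+ array, at 6.72. Rian, the snoRNA host, read 10.2, 10.18 and 10.07 in Tom- cells and 6.3, 5.0 and 5.82 in Tom+ cells, a 21.8-fold difference.

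The snoRNA genes differed most in muscle, which is the reason they were picked. AF357355 read 10.68, 10.21 and 10.5 in Tom- cells and 5.45, 3.25 and 4.66 in Tom+ cells, a difference of -6.01 or 64.3-fold. AF357425 read 11.05, 10.96 and 11.01 in Tom- cells and 6.91, 4.73 and 5.92 in Tom+ cells, a difference of -5.15 or 35.6-fold. In Tom+ cells both genes, like Rian, were highest in repeat 1 and lowest in repeat 2, while the Tom- repeats lay close together. From repeat 3 alone the differences were -1.54 for Dlk1, -3.41 for Meg3, -4.26 for Rian, -5.84 for AF357355 and -5.09 for AF357425. Dio3 was dim in all 5 populations, between 3.64 and 4.57 on every array and at the 23.7th to 35.6th percentile of its array, and no difference is drawn from it. Of all genes tested, 25.2% were lower in Tom+ muscle cells without overlap, the background against which the 5 stand. Moving the same way, 9 of 9 fibroblast, 8 of 8 tenocyte, 10 of 10 myogenic progenitor and 8 of 10 differentiating muscle markers were lower without overlap in Tom+ muscle cells. So were 8 of 10 leukocyte, 6 of 6 Schwann cell and 6 of 10 pericyte and smooth muscle markers. Higher without overlap were 10 of 10 endothelial markers and 1 leukocyte marker. The part of all these markers in the result was not tested. In sorted bulk cells fewer cells that hold a transcript and less of it per cell cannot be told apart.

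**Figure D1:**
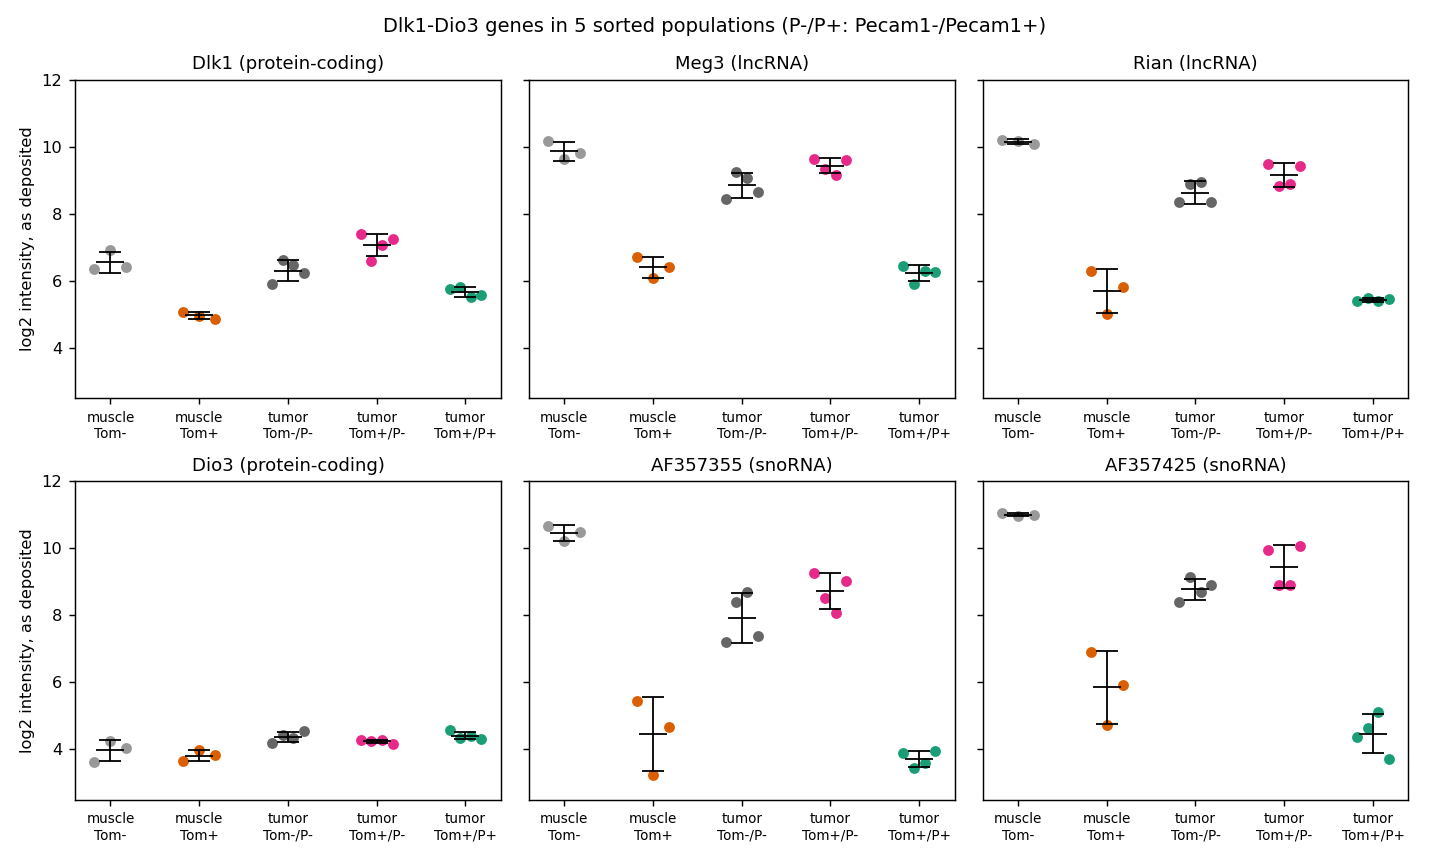
Deposited log2 intensity (y axis) of the 6 measured genes in each array (points) of the 5 populations (x axis, P-/P+ for Pecam1-/Pecam1+), with mean and SD in black. For Meg3, Rian and both snoRNA genes, Tom+ muscle and Tom+/Pecam1+ tumor cells lie low and the other 3 populations high, Dlk1 has a smaller range, and Dio3 stays between 3.64 and 4.57.

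In the tumor, marked cells with Pecam1 had lower Dlk1, Meg3, Rian, AF357355 and AF357425 than marked cells without Pecam1. All 5 genes that could be tested fell at an adjusted p under 0.05 (limma, adjusted over 16011 genes), where 23.6% of all genes tested fell and 44.6% changed in either direction. The members' median difference was -3.72, beside 0.01 over all genes. Both snoRNA genes reached the test because they are bright in the other populations, on 13 and 15 of 18 arrays above the 40th percentile, so the count of 5 supports nothing by itself.

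Dlk1 read 7.39, 6.6, 7.06 and 7.25 in the Tom+/Pecam1- repeats and 5.75, 5.8, 5.51 and 5.57 in the Tom+/Pecam1+ repeats. It fell by 1.42 on the log2 scale (SE 0.18, 95% interval -1.79 to -1.05, adjusted p = 3.43e-06). Meg3 read 9.64, 9.35, 9.16 and 9.61 against 6.45, 5.9, 6.28 and 6.27. The 9.27-fold decrease of Meg3 (-3.21, SE 0.19, adjusted p = 2.95e-10) left no overlap between the lowest Tom+/Pecam1- array, at 9.16, and the highest Tom+/Pecam1+ array, at 6.45. Rian read 9.49, 8.82, 8.9 and 9.42 against 5.39, 5.5, 5.39 and 5.47, so that its 4 Tom+/Pecam1+ arrays lay within an SD of 0.06. Its decrease was 13.2-fold (-3.72, SE 0.23, adjusted p = 3.91e-10).

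AF357355 read 9.28, 8.52, 8.07 and 9.02 in Tom+/Pecam1- and 3.89, 3.44, 3.6 and 3.96 in Tom+/Pecam1+ tumor cells, a 32.0-fold decrease (-5.0, SE 0.4, adjusted p = 1.47e-08). AF357425 read 9.94, 8.91, 8.92 and 10.08 against 4.38, 4.65, 5.11 and 3.72, a 31.9-fold decrease (-4.99, SE 0.39, adjusted p = 9.34e-09). For both snoRNA genes the groups lay far apart in every repeat. Relative to the array's median, the Tom+/Pecam1+ arrays read -1.99 to -1.48 for AF357355 and -1.71 to -0.33 for AF357425, and the file gives no detection call for such values. A probe set over a snoRNA may read the spliced-out RNA or its host, and these values cannot tell the 2 apart.

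Against the unmarked Tom-/Pecam1- tumor cells, the marked Pecam1+ cells were lower in the same 5 genes, where 21.2% of all genes tested fell and 41.7% changed in either direction. Dlk1 read 5.9, 6.63, 6.46 and 6.22 in Tom-/Pecam1- cells, and its decrease was the smallest (-0.65, adjusted p = 0.00675). Meg3 read 8.43, 9.26, 9.08 and 8.64 there and fell 6.17-fold (adjusted p = 4.52e-09). Rian read 8.34, 8.9, 8.94 and 8.34 and fell 9.13-fold (adjusted p = 3.13e-09). The snoRNA genes fell 18.5-fold for AF357355 (7.21, 8.41, 8.71 and 7.39 in Tom-/Pecam1- cells, adjusted p = 1.5e-07) and 19.9-fold for AF357425 (8.39, 9.15, 8.69 and 8.91, adjusted p = 6.87e-08). Both comparisons share the Tom+/Pecam1+ arrays and are not independent. In Tom+/Pecam1+ cells 10 of 10 endothelial markers were higher than in Tom+/Pecam1- cells. Lower were 9 of 9 fibroblast, 7 of 8 tenocyte, 10 of 10 myogenic progenitor and 10 of 10 differentiating muscle markers. So were 7 of 10 leukocyte, 3 of 6 Schwann cell and 9 of 10 pericyte and smooth muscle markers. In the leukocyte list and in the pericyte and smooth muscle list 1 marker each was higher. The part of these markers in the decrease was not tested.

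Along the locus the decrease in Tom+/Pecam1+ cells was deepest at Meg3, Rian and the snoRNAs and smaller or not called at most miRNA genes. Of the other 2 long noncoding RNA genes tested, Dio3os fell by 0.82, and 3110009F21Rik, at 5.08 ± 0.11 against 4.94 ± 0.08 (n = 4 each), was not called (adjusted p = 0.284). Between Begain and Dio3, 56 genes had a probe set of their own and 35 were tested. Of these 18 fell and 0 rose against Tom+/Pecam1- cells in limma, with a median of -0.47. In that comparison 3776 of all 16011 genes fell (23.6%) and 3360 rose. A gene above the 40th percentile on only the 3 Tom- muscle arrays was tested, and the locus had been chosen by its muscle values. This one-sided count therefore supports nothing by itself. All 5 snoRNA genes tested fell, besides the 2 members also AF357426 (-3.64, adjusted p = 1.17e-10), DQ267101 (-4.07, adjusted p = 5e-08) and DQ267102 (-2.47, adjusted p = 1.96e-06). AF357426 read 6.5, 6.35, 6.51 and 6.42 in Tom+/Pecam1- and 3.05, 2.48, 2.57 and 3.11 in Tom+/Pecam1+ cells. The sixth snoRNA gene with a probe set, AF357341, was dim on all arrays, with group means from 2.72 to 3.09.

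Of the 43 miRNA genes with a probe set in the locus, 24 were tested. Against Tom+/Pecam1- cells 9 fell and none rose in limma, where 3776 of all 16011 genes fell (23.6%) and 3360 rose. The median of the 24 was -0.28, beside 0.01 over all genes. Here too brightness in Tom- muscle cells sufficed for testing. Mir377, for example, read 5.27, 5.28 and 6.23 in Tom- muscle and at most 4.68 on any tumor array. The one-sided count of miRNA genes therefore supports nothing by itself. Mir544, whose 2 arms are printed above, read 5.62, 4.58, 4.89 and 6.24 in Tom+/Pecam1- and 3.22, 2.79, 2.97 and 2.36 in Tom+/Pecam1+ cells, a 5.65-fold decrease (adjusted p = 7.47e-06). Mir453 read 7.29, 5.9, 6.21 and 8.0 against 4.65, 4.76, 4.65 and 4.66, a 4.5-fold decrease (adjusted p = 0.00045). In both genes Tom+/Pecam1- repeats 1 and 4 stood above repeats 2 and 3. Mir3070b fell 2.55-fold (adjusted p = 0.000163), while Mir3070a, with the same seeds, fell by 0.47 and was no longer called in 7 of the other settings besides the stricter threshold. The others were Mir377 (-1.1), Mir370 (-0.74), Mir409 (-0.62), Mir1188 (-0.58) and Mir493 (-1.11), and without the day 38 repeat Mir493 and Mir1188 lost their calls (adjusted p = 0.14 and 0.0765). A further 15 miRNA genes were tested and did not pass, among them Mir494, which was 0.48 higher in Tom+/Pecam1+ than in Tom-/Pecam1- cells (adjusted p = 0.0102, 0.0646 with the replicate block).

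**Figure D2:**
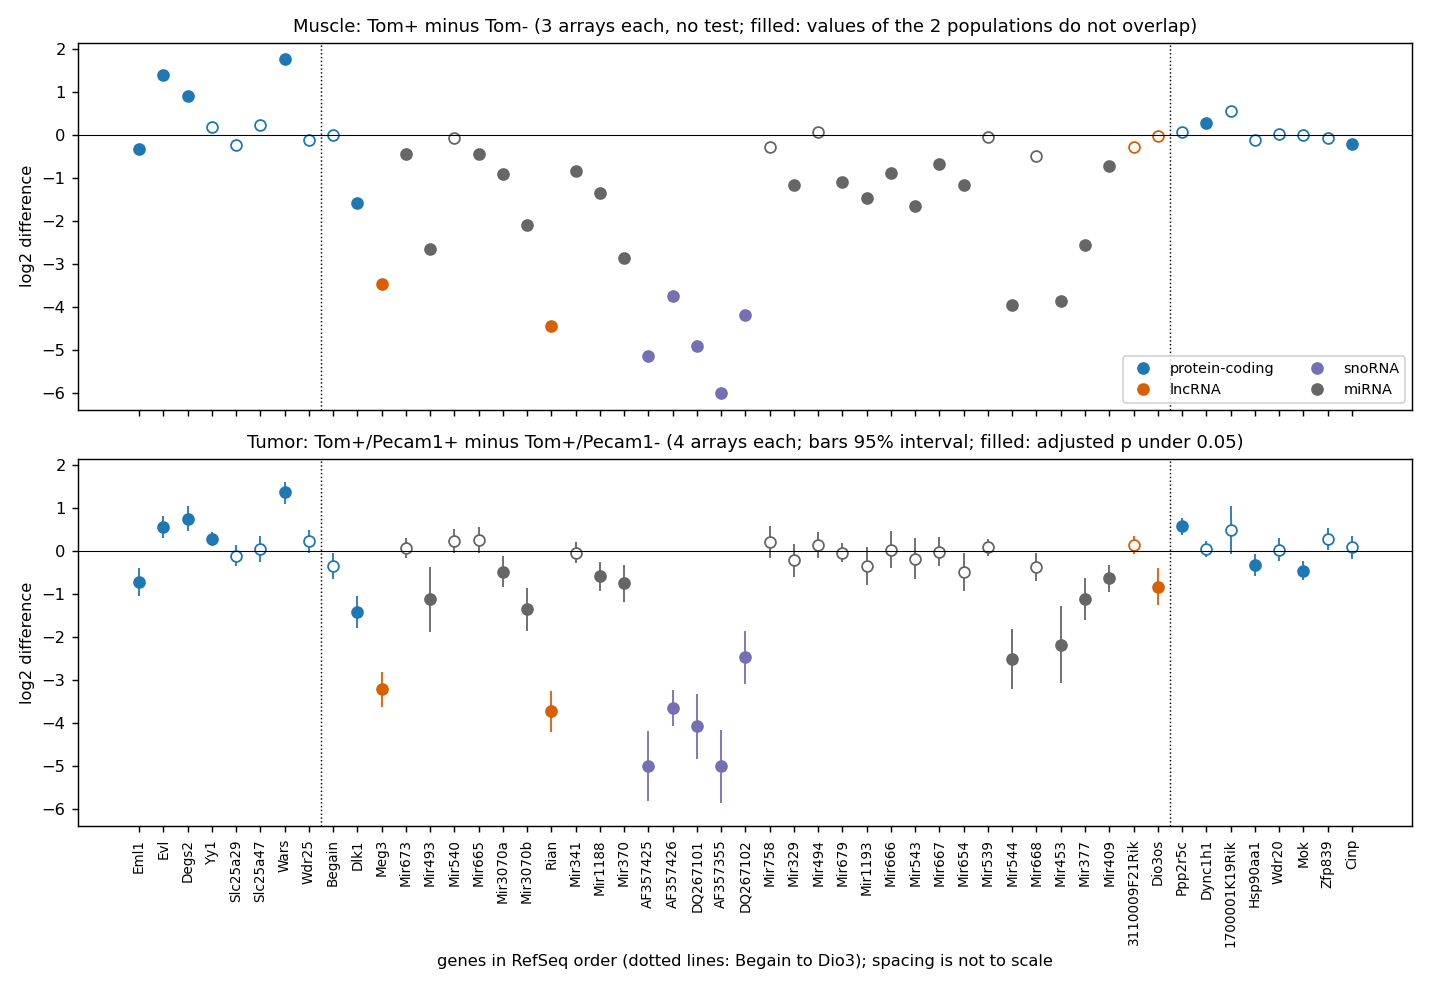
Log2 difference (y axis) of each tested gene in RefSeq order (x axis, not to scale; dotted lines enclose Begain to Dio3), for Tom+ minus Tom- muscle cells with no test (top) and for Tom+/Pecam1+ minus Tom+/Pecam1- tumor cells with 95% intervals (bottom); colours give the RefSeq gene type. Meg3, Rian and the snoRNAs reach down to -6.01 in muscle and -5.0 in tumor, and the flanking genes lie on both sides of 0.

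In muscle most genes of the locus were lower in Tom+ cells, which is part of why the locus was chosen. Of 56 genes with a probe set between Begain and Dio3, 41 were lower in Tom+ cells without overlap and 0 were higher. Among the 35 bright enough to test 27 were lower, beside 25.2% of all genes tested. Of the 43 miRNA genes 33 were lower without overlap, with a median of -0.88 over all 43, against 40 lower and 49 higher of 440 miRNA genes elsewhere in the genome, with a median of 0.04. The largest differences among miRNA genes were at Mir544 (15.4-fold), Mir453 (14.5-fold) and Mir370 (7.26-fold). The 5 bright snoRNA genes of the locus ranged from -3.74 to -6.01. The sixth with a probe set, AF357341, too dim to test, differed by -0.22 with overlap. Taken without the filter, 47 box C/D snoRNA genes elsewhere had a median of -0.26, and 7 of them were lower and 2 higher without overlap.

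The genes next to the locus had no common direction. Of 8 protein-coding genes before Begain, 4 rose and 1 fell in Tom+/Pecam1+ against Tom+/Pecam1- tumor cells, with a median of 0.26. Wars, a tryptophan tRNA synthetase gene, rose 2.58-fold (adjusted p = 5.22e-08), and Degs2, Evl and Yy1 rose by 0.76, 0.56 and 0.29 (for Yy1 adjusted p = 0.00725, 0.063 with the replicate block), whereas Eml1 fell by 0.71 (adjusted p = 0.000847). Eml1 differed the same way as Dlk1 in 2 further comparisons, being 1.01 higher in marked than in unmarked Pecam1- tumor cells (adjusted p = 0.000139, 0.0102 with the replicate block) and, with no test, lower in Tom+ than in Tom- muscle cells without overlap (-0.32). Against unmarked tumor cells, 5 of the 8 genes before Begain rose in Tom+/Pecam1+ cells and 0 fell, with a median of 0.35. Of all genes tested 20.5% rose and 21.2% fell there. Among the 5, Yy1 did not pass with the replicate block (adjusted p = 0.131). Eml1 did not pass in this comparison (0.29, adjusted p = 0.129). Of 8 after Dio3, Ppp2r5c rose (0.59) and Mok and Hsp90aa1 fell (-0.45 and -0.32) against Tom+/Pecam1- cells. Begain, the first gene of the interval, read 5.07 ± 0.21 in Tom+/Pecam1+ and 5.41 ± 0.18 in Tom+/Pecam1- cells (n = 4 each, adjusted p = 0.0676). In the tumor the miRNA and snoRNA genes of other loci were called in both directions against Tom+/Pecam1- cells. Of 187 miRNA genes tested elsewhere 32 rose and 20 fell, with a median of 0.11. Of 45 box C/D snoRNA genes tested elsewhere 8 rose and 2 fell, with a median of -0.03. In that comparison 3360 of all 16011 genes rose and 3776 fell (23.6%).

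**Figure D3:**
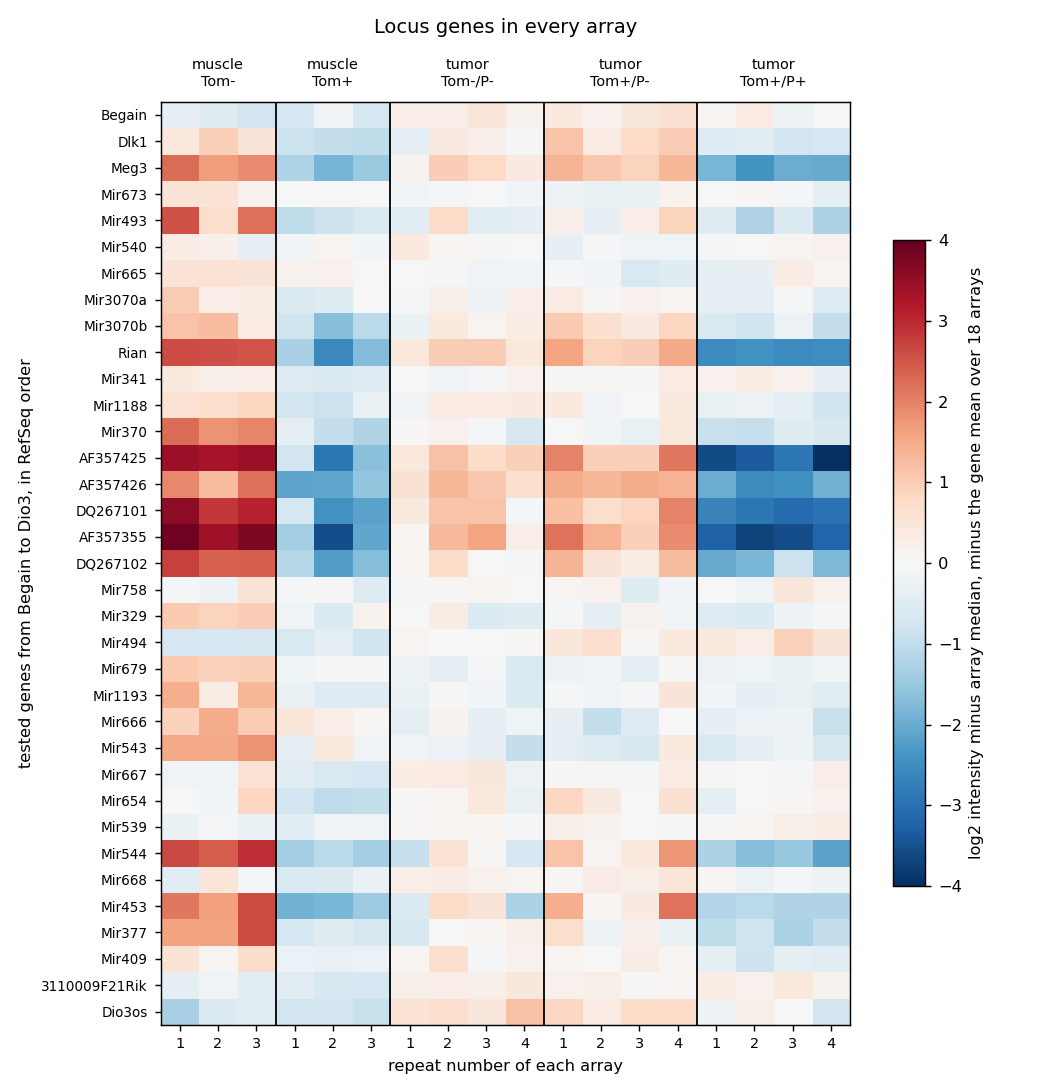
Centred log2 intensity (colour: value minus the array's median, then minus the gene's mean over 18 arrays) of the 35 tested genes from Begain to Dio3 (rows, RefSeq order) in each array (columns, numbered by repeat within its population). Meg3, Rian, the snoRNA genes, Mir544 and Mir453 are blue in Tom+ muscle and Tom+/Pecam1+ tumor cells and red in Tom- muscle cells.

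Between the 2 Pecam1- tumor populations, Dlk1 was higher in marked than in unmarked cells and no difference of Meg3, Rian, AF357355 or AF357425 held under all settings. Dlk1 rose 1.71-fold (0.77, SE 0.18, adjusted p = 0.00373, 0.0425 with the replicate block), although its ranges overlap at 6.6 and 6.63. Meg3 passed the threshold (0.59, adjusted p = 0.0313) but not with the repeat as a block (adjusted p = 0.112), nor without the day 38 repeat (0.46, adjusted p = 0.166), nor without any of 4 arrays, Tom-/Pecam1- or Tom+/Pecam1- repeat 1 or 4 (adjusted p = 0.081 to 0.121). Rian (0.53, 95% interval 0.05 to 1.0, adjusted p = 0.0984), AF357355 (0.79, -0.05 to 1.64, adjusted p = 0.167) and AF357425 (0.68, -0.14 to 1.49, adjusted p = 0.226) did not pass, and their intervals allow a difference. Of all genes tested 13.4% rose and 25.4% changed in either direction. Among the other locus genes Mir544 alone passed (1.1, adjusted p = 0.0218, 0.132 with the replicate block).

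The difference between these populations was uneven over the repeats. Tom+/Pecam1- minus Tom-/Pecam1- was 1.49, -0.03, 0.6 and 1.03 for Dlk1 in repeats 1 to 4. For Meg3 it was 1.2, 0.09, 0.08 and 0.98, and for Rian 1.16, -0.09, -0.04 and 1.09. AF357355 gave 2.07, 0.1, -0.64 and 1.63, and AF357425 gave 1.55, -0.24, 0.23 and 1.18. In each of the 5 genes repeats 1 and 4 thus had the larger differences, and in Meg3, Rian and both snoRNA genes repeats 2 and 3 lay near or below 0.25. Gli1, a direct target of Hedgehog signalling, also differed most in repeats 1 and 4 (2.61, 1.43, 0.81 and 3.14), as did Ptch1, the Hedgehog receptor gene and target (2.36, 1.26, 0.97 and 3.06). The summed markers of differentiating muscle did so too (2.24, 1.13, 0.78 and 2.09), whereas leukocyte markers were lower in marked cells by a similar amount in each repeat (-2.64, -1.91, -2.23 and -2.03). The part of these shifts in the result was not tested, and repeat 4 differs in age from the others.

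**Figure D4:**
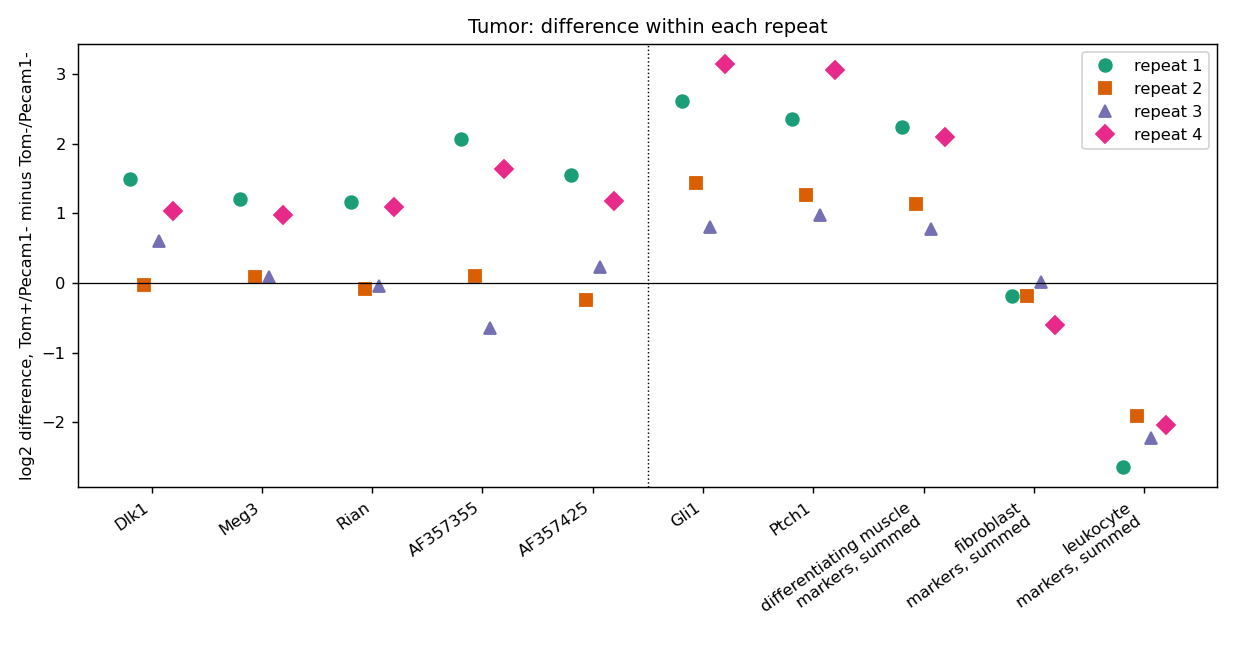
Log2 difference between Tom+/Pecam1- and Tom-/Pecam1- tumor cells (y axis) within each of 4 repeats (symbols) for the 5 tested genes, left of the dotted line, and for 2 Hedgehog targets and 3 summed marker lists, right of it. Repeats 1 and 4 give the higher differences for the locus genes, for Gli1, from 0.81 to 3.14, and for differentiating muscle markers, from 0.78 to 2.24.

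Rtl1 and Mirg can be described only through probe sets that name them jointly with others. A probe set annotated to Rian and the snoRNA gene DQ267100 read 11.62 ± 0.17 in Tom- muscle (n = 3), 6.93 ± 1.04 in Tom+ muscle (n = 3), and 9.76 ± 0.18, 10.29 ± 0.59 and 5.89 ± 0.48 in Tom-/Pecam1-, Tom+/Pecam1- and Tom+/Pecam1+ tumor cells (n = 4 each). Its 5 means thus have the order of those of Rian. The joint probe set of Mirg, Mir369, Mir410 and Mir412 read 4.74 ± 0.29 in Tom- and 3.54 ± 0.08 in Tom+ muscle, and 4.4 ± 0.21 in Tom+/Pecam1- and 3.76 ± 0.06 in Tom+/Pecam1+ tumor cells. The one of Mirg and Mir485 read 4.57 ± 0.74 and 2.89 ± 0.15 in Tom- and Tom+ muscle, and 3.79 ± 0.15 and 3.07 ± 0.26 in Tom+/Pecam1- and Tom+/Pecam1+ tumor cells. The one of Mirg and Mir134 was not lower in Tom+/Pecam1+ tumor cells, at 6.38 ± 0.12 against 6.35 ± 0.16 in Tom+/Pecam1- cells, and read 6.22 ± 0.1 in Tom- and 5.82 ± 0.15 in Tom+ muscle. The 6 that include Rtl1 were mostly dim and had no shared order: the one with Mir431 read 5.42 ± 0.19 in Tom- and 5.13 ± 0.07 in Tom+ muscle, and the one with Mir432 4.66 ± 0.05 and 5.21 ± 0.08. None of these values can be assigned to 1 gene. The Meg3 probe set has its own limit: of the 20 named probe sets with the nearest identifiers 17 belong to genes of the minus strand, whereas RefSeq puts Meg3 on the plus strand. The 2 probe sets that name Meg3 with miRNA genes followed it closely, with Pearson correlations of 0.986 and 0.977 over the 18 arrays, which share their libraries.

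Dio3 was too dim to test, and its neighbour Dio3os, a noncoding RNA gene on the opposite strand, fell in Tom+/Pecam1+ tumor cells. Dio3os read 5.87, 5.36, 5.78 and 5.79 in Tom+/Pecam1- and 4.85, 5.3, 5.05 and 4.33 in Tom+/Pecam1+ tumor cells, a decrease of 0.82 (adjusted p = 0.00414). In muscle its populations overlapped (-0.03). Among 14 tested genes of thyroid hormone transport, conversion and response, 3 rose and 5 fell in Tom+/Pecam1+ against Tom+/Pecam1- cells, with a median of -0.06, where 3360 of all 16011 genes rose and 3776 fell (23.6%). Dio2, the deiodinase that activates thyroid hormone, fell 5.36-fold (adjusted p = 1.25e-07), the transporter gene Slc16a10 fell 2.66-fold (adjusted p = 3.13e-08) and the coactivator gene Ncoa1 2.96-fold (adjusted p = 1.97e-08). Thrsp, a lipogenic gene responsive to the hormone, rose 10.1-fold (adjusted p = 3.08e-10).

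Imprinted genes outside the locus also differed between the tumor populations. Of 22 tested, 17 fell and 0 rose in Tom+/Pecam1+ against Tom+/Pecam1- cells in limma, with a median of -0.93, where 3776 of all 16011 genes fell (23.6%) and 3360 rose. In Tom+/Pecam1- against Tom-/Pecam1- cells 12 rose and 0 fell, with a median of 0.41, where 2141 of all genes rose (13.4%) and 1924 fell. Peg3, a zinc finger gene of imprinted domains, fell 11.8-fold (adjusted p = 3.27e-10), its neighbour Zim1 11.1-fold (adjusted p = 9.67e-10), the growth factor gene Igf2 7.19-fold (adjusted p = 9.47e-08) and Nnat 6.26-fold (adjusted p = 1.68e-08). In muscle 17 of the 24 with a probe set were lower in Tom+ cells without overlap and 0 were higher. Of the 22 tested 16 were lower in this way, beside 25.2% of all genes tested. Among 19 tested regulators of imprints and DNA methylation, 6 rose and 6 fell against the same shares of all genes. Aff3, which is known to act on control elements of this locus, fell 6.53-fold (adjusted p = 1.29e-09), Ezh2 of the Polycomb complex fell by 0.72, and the DNA methyltransferase gene Dnmt3b rose by 0.68. Zfp57, a zinc finger gene that keeps imprints methylated, was 0.85 higher in marked than in unmarked Pecam1- cells (adjusted p = 0.000691).

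Of 16 tested genes around Dlk1 and Notch, 6 rose and 5 fell in Tom+/Pecam1+ against Tom+/Pecam1- cells, with a median of 0.16, beside 3360 and 3776 of all 16011 genes. The Notch ligand gene Dll4 rose 20.9-fold (adjusted p = 1.9e-13). Notch2 fell 6.83-fold (adjusted p = 8.21e-12), the transcription factor gene Sox9 9.56-fold (adjusted p = 1.42e-10) and the fibronectin gene Fn1 4.65-fold (adjusted p = 2.23e-10). Of 21 genes of snoRNA particles and small RNA processing, 2 rose and 8 fell, with a median of -0.12, beside the same shares. The RNA editing enzyme gene Adarb1 rose 4.98-fold (adjusted p = 2.9e-06), Dicer1 rose by 0.4, and Ago2 and Drosha fell by 0.54 and 0.41.

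Over the 18 arrays, each centred on its median, Meg3, Rian, AF357355 and AF357425 correlated more with each other than with Dlk1. Other genes of the locus were not set against Dlk1 in this way. The correlations among arrays are descriptions, and arrays of 1 population share their cells. Rian and AF357355 correlated at 0.995, Rian and Meg3 at 0.991 and Rian and AF357425 at 0.984. Dlk1 correlated at 0.881 with Meg3, 0.876 with Rian, 0.853 with AF357355 and 0.827 with AF357425. The 4 genes most like Dlk1 lie elsewhere: Vldlr (0.961), Hspa12a (0.955), Musk (0.954) and Plxnb1 (0.953). Of the 4 most like Rian, all lie in the locus (AF357355, Meg3, DQ267101 and AF357425), whereas AF357425 was most like the muscle gene Myom1 (0.988) and Ror1 (0.987).

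Set side by side with no test, the unmarked tumor cells had lower levels of Meg3, Rian, AF357355 and AF357425 than unmarked muscle cells. Other noncoding genes of the locus differed in both directions on the deposited scale. Dio3os was higher in the tumor, at 5.75 ± 0.31 (n = 4) against 3.94 ± 0.45 (n = 3), as were 3110009F21Rik (5.11 ± 0.09 against 4.15 ± 0.19) and Mir494 (5.38 ± 0.06 against 4.32 ± 0.02). Lower in the tumor were DQ267101 (6.6 ± 0.61 against 8.76 ± 0.37), DQ267102 (7.87 ± 0.38 against 9.85 ± 0.21), Mir544 (4.23 ± 0.67 against 6.81 ± 0.24) and Mir453 (5.69 ± 0.94 against 7.63 ± 0.46), among others. Tissue, SmoM2 genotype, age, strain, the Pecam1 gate and array scale differ between the unmarked tumor and muscle cells and cannot be told apart. Leukocyte markers summed to 13.15 to 13.7 in these tumor cells against 10.65 to 10.97 in these muscle cells, and their part in the result was not tested. Centred on array medians, Tom-/Pecam1- tumor cells minus Tom- muscle cells came to -1.35 in Meg3, -1.86 in Rian, -2.87 in AF357355 and -2.56 in AF357425, with no overlap. Dlk1 differed by -0.59, and on the deposited scale by -0.25 with overlap. Between Tom+/Pecam1+ tumor and Tom+ muscle cells the centred values overlapped in Meg3 (-0.53), Rian (-0.62), AF357355 (-1.09) and AF357425 (-1.74), and Dlk1 was 0.33 higher in the tumor without overlap.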

How the data were processed

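Cells were freed with collagenase B and Dispase II and sorted by flow cytometry, and total RNA was extracted with DNase I treatment, per the labels' protocols. The deposited values are log2 probe set intensities of 18 arrays, made with RMA in Partek per the submitters' processing notes. The genome build and the normalization between muscle and tumor arrays are not given in the sources used here.

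Of 41345 probe sets, 23521 carry 1 gene symbol, 1814 several and 16010 none. One probe set, the brightest on average, stood for each of 22180 genes. Genes above the 40th percentile of the array on at least 3 arrays were tested, which left 16011 and took out 6169. Differences came from limma 3.58.1 (R 4.3.3), with 1 mean per population over all 18 arrays, moderated variance and Benjamini-Hochberg adjustment over all genes tested, and a call is an adjusted p under 0.05. The fit was tested on simulated data with independent noise on each array. Such data cannot show how the removal of repeat means from the tumor arrays affects the adjusted p. Array number limits the precision. Gene order, miRNA and promoter sequences come from RefSeq (GRCm38.p6). No 2 arrays held identical values.

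The members, the gene lists and the tests were chosen with earlier results of these data known. Named besides the members are, for each list and comparison, up to 4 genes with the smallest adjusted p, all genes of short lists of calls (up to 5), the genes between Begain and Dio3 with 8 on each side, and the 4 most alike genes per member. In muscle, same-numbered arrays deviated together (correlations of deviations from population means 0.24 to 0.26, against -0.16 to -0.09 otherwise), but no test was made there. In the tumor this check is void, since repeat means had been removed (-0.7 to -0.21 for the same number). The alternatives tried were to drop the filter or raise it to the 60th percentile, to centre or quantile-normalize arrays, a robust variance with a trend, gene values averaged over probe sets, tumor arrays only, the repeat as a block, no day 38 repeat, an adjusted p of 0.01, and each array left out.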

Additional observations from a re-analysis of the deposited data

Results flagged for a closer look

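The mean difference of Meg3 between marked and unmarked cells was negative in muscle and positive between the Pecam1- tumor populations. The positive one did not hold under all settings. Every Tom+ array was below its same-numbered Tom- array in muscle, with a mean difference of -3.46 over 3 repeats, and every Tom+/Pecam1- array was above its same-numbered Tom-/Pecam1- array in the tumor, with a mean difference of 0.59 over 4 repeats. The difference between the tissues was not tested, and the marked muscle cells were not divided by Pecam1. Against the same unmarked tumor cells, Tom+/Pecam1+ cells differed by -2.63, the sign seen in muscle. In the tumor, repeats 2 and 3 differed by 0.09 and 0.08, and the call was lost with the replicate block (adjusted p = 0.112), without the day 38 repeat (0.166) and without any of 4 arrays (0.081 to 0.121). Outliers were looked for in 18 sets of 4 arrays, of which chance would mark about 1 in 20, and none was found.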

How the results depend on the processing

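All 5 tested members kept their calls and direction in marked Pecam1+ against marked Pecam1- and against unmarked Pecam1- tumor cells under the 22 other settings, with the highest adjusted p at 0.000601 and 0.044, both for Dlk1 (limma). Between the Pecam1- populations 2 members were called, and 1 with the replicate block on tumor arrays only, 1 without the day 38 repeat, 1 at an adjusted p of 0.01, and 1 to 2 with 1 array left out. Rian passed there in the fit to tumor arrays only (adjusted p = 0.0497). Dlk1 kept its call under all 22, with adjusted p from 0.000965 to 0.0425. With the replicate block 2045 genes were called in that comparison against 4065 without it, and the block changed no other call of a member. Of the other locus genes it also ended the calls of Mir544 (adjusted p = 0.132) between the Pecam1- populations and of Mir370 (0.0674) and Mir494 (0.0646) between Pecam1+ and unmarked cells. The causes were not tested. In muscle the 5 tested members were lower without overlap under every planned setting. Dio3 joined them without Tom- repeat 1, its other Tom- arrays reading 4.26 and 4.05 and its highest Tom+ array 3.97. It also joined them from repeat 3 alone, a setting chosen after seeing the data in which each population is 1 array. The file holds no measure of signal over background, which limits what the low values of Dio3 and of the snoRNA genes can show.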
